A study of Mus musculus with 12 samples.

Results

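The 10 genes followed here make nitric oxide or supply the reaction: Nos2, the inducible nitric oxide synthase; Gch1, Pts and Spr, which make its cofactor tetrahydrobiopterin; Slc7a2, Ass1 and Asl, which import or rebuild its substrate arginine; Arg1 and Arg2, which split arginine; and Ddah1, which clears natural inhibitors of the enzyme. They were chosen by name for this role, with earlier results of these data known. Their 10 symbols matched 10 of the 55822 gene identifiers in the table. The RNA came from smooth muscle cells of the mouse aorta in primary culture, the muscle cells of the artery wall, in 3 groups of 4 libraries. The naive conditioned medium (CM) group was starved for 48 h in 0.3% serum and then kept for 24 h in medium taken from untreated macrophages grown from bone marrow. The IFNγ/LPS CM group was handled in the same way with medium of macrophages that had received interferon gamma (IFNγ) at 20 ng/mL overnight and lipopolysaccharide (LPS) at 100 ng/mL for 4 h. Those macrophages and the untreated ones were washed before the medium to be collected was added, and that medium held 0.3% serum and M-CSF, a macrophage growth factor, at 10 ng/mL. The labels name no LPS or interferon given directly to the smooth muscle cells, and carry-over in the medium was not measured here. The last group received regular growth medium, and the labels do not state whether it was starved or how much serum it had. Strain, age and sex of the mice are not used here.

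Nitric oxide synthases turn arginine into citrulline and nitric oxide, and need tetrahydrobiopterin bound beside the haem to do so. Gch1 catalyses the first and usually limiting step of tetrahydrobiopterin synthesis from GTP, Pts the next step and Spr the last. Citrulline can be rebuilt into arginine by Ass1 and then Asl, while arginases divert arginine to ornithine. In the artery wall, nitric oxide normally comes from the endothelium, and Nos2 is known as the isoform that smooth muscle and macrophages switch on under inflammatory signals.

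Nos2 RNA went from at most 2 reads per library in naive CM to 123384 or more in each of the 4 IFNγ/LPS CM libraries, and Arg2 from at most 2 reads to 229 or more. Gch1 rose 19.3-fold and Slc7a2 20.8-fold between the same groups, Ddah1 3.93-fold and Ass1 1.80-fold. Asl, Spr and Pts, the other supply enzymes, differed by 1.18-fold or less, and the direction of these small differences turned when the libraries were scaled by their totals. That scaling lowered the log2 fold change of Ass1 from 0.85 to 0.46. Arg1 stayed at 8 reads or fewer in every library.

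The libraries held 28097496 to 61493375 estimated counts. Levels are given as counts per 1000000 (CPM) after scaling by TMM, which takes most genes as unchanged, and, where different genes are compared, as RPKM, the CPM per kilobase of exon. Of the 16140 genes that passed the filter on low counts, 71.9% passed an adjusted p of 0.05 between IFNγ/LPS CM and naive CM. Scaling by library totals in place of TMM moved the median of all genes' log2 fold changes in that comparison from 0.004 to -0.383, and in IFNγ/LPS CM against regular medium from -0.026 to -0.412, so small differences between genes near these values depend on the scale. Among smooth muscle markers, Acta2 was at 280 ± 30 CPM (SD, n = 4) in regular medium, 220.2 ± 8.0 with naive CM and 77.3 ± 3.6 with IFNγ/LPS CM, while Myh11 and Cnn1, the most specific markers of contractile muscle, were under 1 CPM on average in all 3 groups. In bulk RNA, fewer cells of a type and less RNA per cell cannot be told apart. Regular medium replicate 4 stood apart from its group: its counts differed from those of the 3 others with a chi-square per degree of freedom of 50.2, 56.9 and 22.0, against 15.5 to 20.5 among those 3 and 4.71 to 19.4 within the other groups. Values without it are given where they change a call. The titles call the replicates biological without naming an animal or a culture, and a p-value here weighs a difference against the spread of these libraries alone.

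Nos2 (ENSMUSG00000020826, chr11:78920787-78960254 on the plus strand of GRCm38, protein coding) had 0 counts in all 4 regular medium libraries. In naive CM it had 0, 0, 2 and 1 counts in replicates 1 to 4. In IFNγ/LPS CM it had 134464, 123384, 141286 and 134059 counts, or 3618, 3571, 3916 and 3955 CPM. Every IFNγ/LPS CM library was thus above every other library, and the spread among those 4 was small beside the gap. The ratio of IFNγ/LPS CM to naive CM from the summed counts was 250900, with an exact 95% counting interval of 85860 to 1217000, and the edgeR quasi-likelihood test gave an adjusted p of 1.37e-20. Nos2 passed the filter on low counts only through IFNγ/LPS CM, so the direction of this test was fixed. Against regular medium, set at a floor of 3 counts over the group, Nos2 was at least 256800-fold higher. Between naive CM and regular medium, 3 counts against 0, the adjusted p was 0.114, and no fold is given because both groups lie at or under the floor. Nos2 was the 21st to 25th gene by count in the IFNγ/LPS CM libraries and took 0.299 to 0.333% of all their counts.

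The other nitric oxide synthases stayed near the limit of detection. Nos1, the neuronal isoform, had 4 counts over the 4 regular medium libraries, 1 over those of naive CM and 4 over those of IFNγ/LPS CM. Nos3, the endothelial isoform, had 0, 8 and 18 counts in the same order, and its IFNγ/LPS CM to naive CM ratio was 3.18 with an exact 95% interval of 1.31 to 8.44. On the per-length scale, Nos2 averaged 853 ± 45 RPKM (SD, n = 4) in IFNγ/LPS CM, beside 0.0303 for Nos3 and 0.00256 for Nos1. By this measure nearly all nitric oxide synthase RNA in IFNγ/LPS CM was Nos2.

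Macrophages are a known source of Nos2, and macrophage markers differed between the groups as well. The summed level of the 25 macrophage markers was 37.7 to 39.1 CPM in regular medium, 40.8 to 46.6 with naive CM and 916 to 1027 with IFNγ/LPS CM. Mpeg1, a pore-forming protein, made up most of the last value with a mean of 874 CPM, and Csf1r, Cd68, Lyz2, Cd14 and Cd53 also rose. Of the 25, 7 passed the filter, 6 of them higher and Mertk lower, and 18 were too low to test. Csf1r and Lyz2 passed only through IFNγ/LPS CM, so their direction was fixed by the filter. Defining leukocyte genes stayed at or near 0 in the 4 IFNγ/LPS CM libraries: Fcgr1 had 0 counts, Ptprc (CD45) 1, Adgre1 (F4/80) 2, Tyrobp 2, Spi1 3 and Itgam 6, summed over the group. Among the markers that rose, Mpeg1 had 123927 counts there, Cd68 881 and Csf1r 656. The summed endothelial markers were 4.28 to 4.88, 3.87 to 4.72 and 18.5 to 20.9 CPM in the same order of groups, those of adventitial fibroblasts 2098 to 2350, 2497 to 2677 and 6907 to 7617, and those of smooth muscle 406 to 498, 387 to 409 and 150 to 153. Within these lists the genes moved both ways. Of 11 smooth muscle markers tested between IFNγ/LPS CM and naive CM, 8 were lower, 2 did not pass and Mylk was higher. Between naive CM and regular medium, 5 of these 11 were higher, 3 lower and 3 did not pass. Of 6 endothelial markers tested between IFNγ/LPS CM and naive CM, 2 were higher, 2 were lower and 2 missed the threshold, and the median was -0.13 on the log2 scale. Flt1 had 2268 counts in IFNγ/LPS CM and 431 in naive CM, while Pecam1 and Erg were lower by 1.48 and 1.09 on the log2 scale and Cldn5 and Tie1 had 0 counts. Of 8 adventitial markers tested, 3 were higher, 4 lower and 1 did not pass, with a median of -0.83. Dcn, at 4674 CPM, and Ly6a, at 2379, made up most of the sum in IFNγ/LPS CM, with log2 fold changes of 1.55 and 3.47, while Gsn went from 712 to 197 CPM and Dpt from 9.87 to 0.257. The part of these other cell types in the members' differences was not tested.

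**Figure D1:**
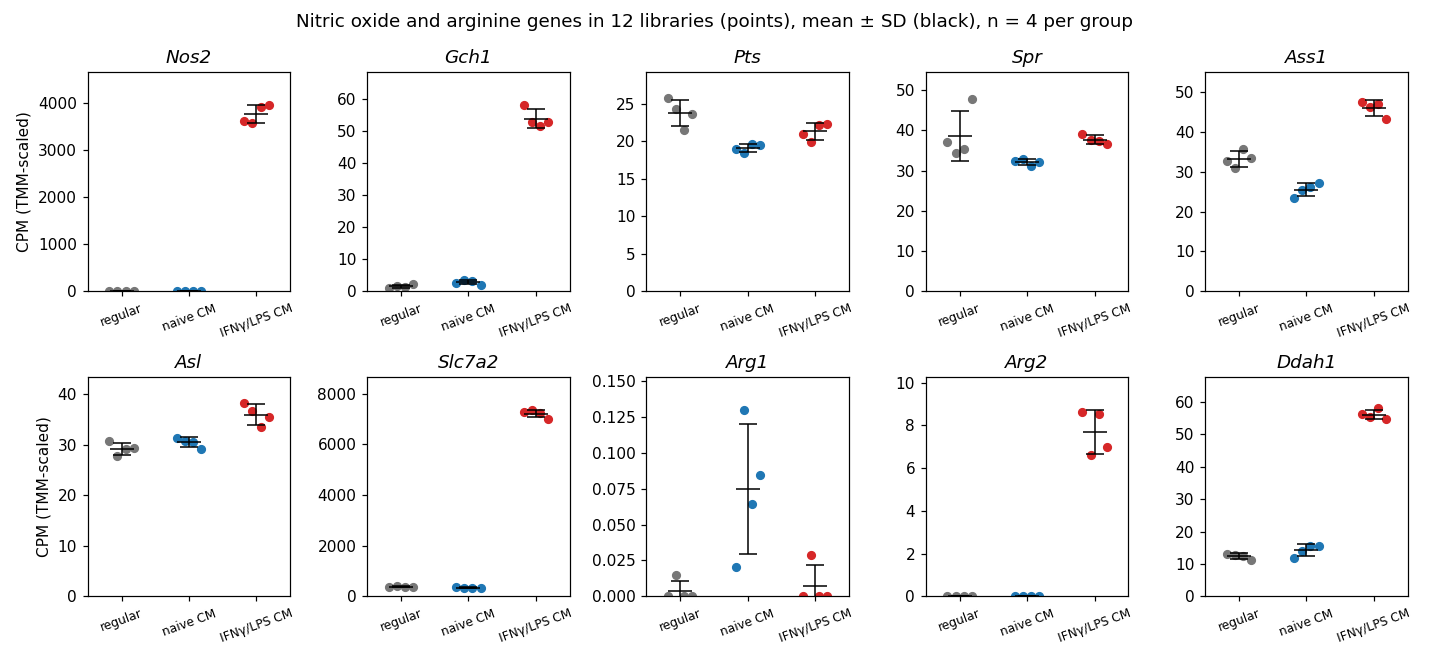
Each point is 1 library, by group on the x axis, with its TMM-scaled level in CPM on a linear y axis that starts at 0; black bars are the mean ± SD of 4 libraries. Nos2, Gch1, Slc7a2, Arg2 and Ddah1 stand far above the other groups in IFNγ/LPS CM, Pts, Spr and Asl move little on this scale and turn direction between IFNγ/LPS CM and naive CM under library totals, and Arg1 has 8 counts or fewer in any library.

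The tetrahydrobiopterin pathway changed at its first step far more than at the steps that follow. Gch1 (ENSMUSG00000037580, chr14:47153895-47189413, minus strand) measured 1.13, 1.53, 1.42 and 2.25 CPM in regular medium replicates 1 to 4. Its values in naive CM were 2.60, 3.49, 3.08 and 2.05 CPM. IFNγ/LPS CM libraries held 58.4, 52.8, 51.7 and 52.8 CPM. The IFNγ/LPS CM libraries lie far above all others, whereas the lowest naive CM library sits under the highest regular medium library. The log2 fold change from naive CM to IFNγ/LPS CM was 4.27 ± 0.17 (SE), with an adjusted p of 2.32e-10 by edgeR. Naive CM itself exceeded regular medium by a log2 fold change of 0.82 ± 0.21 (SE) with an adjusted p of 0.00891, so the order was regular medium, naive CM, IFNγ/LPS CM. From regular medium to IFNγ/LPS CM the rise was 34.1-fold, with an adjusted p of 7.99e-11.

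Pts (ENSMUSG00000032067, chr9:50521617-50528724, minus strand) was at 25.7, 24.3, 21.5 and 23.6 CPM in regular medium. In naive CM the values were 19.0, 18.5, 19.7 and 19.5 CPM. With IFNγ/LPS CM they were 21.0, 19.8, 22.1 and 22.2 CPM. Naive CM was lowest, and the ranges of IFNγ/LPS CM and naive CM lie close together without overlap, while those of IFNγ/LPS CM and regular medium overlap. The difference between IFNγ/LPS CM and naive CM was a log2 fold change of 0.15 ± 0.062 (SE) with an adjusted p of 0.0306 under TMM, but -0.23 with an adjusted p of 0.003 under library totals. It also missed the threshold when naive CM replicate 1 or 2 or IFNγ/LPS CM replicate 3 or 4 was left out or the filter was dropped, with adjusted p between 0.061 and 0.0892. Naive CM was below regular medium by a log2 fold change of -0.32 ± 0.061 (SE), adjusted p 0.000461, a call that held under all 16 alternatives.

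Spr (ENSMUSG00000033735, chr6:85130176-85137766, minus strand) had 37.0, 34.5, 35.4 and 47.9 CPM in regular medium. Naive CM libraries had 32.4, 32.9, 31.1 and 32.2 CPM. The IFNγ/LPS CM values were 39.2, 37.6, 37.4 and 36.7 CPM. Replicate 4 of regular medium stands above the other 3, and naive CM lies under both other groups. IFNγ/LPS CM exceeded naive CM by a log2 fold change of 0.23 ± 0.081 (SE), adjusted p 0.018, under TMM, and the value was -0.16 with an adjusted p of 0.0763 under library totals. Between naive CM and regular medium the log2 fold change was -0.27 ± 0.080 (SE) with an adjusted p of 0.0171, and -0.15 with an adjusted p of 0.0229 without regular medium replicate 4.

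Per length of exon, the balance of these 3 enzymes turned. Gch1 RNA was 0.0655 ± 0.021 (SD, n = 4) of the Pts level in regular medium, 0.144 ± 0.034 with naive CM and 2.48 ± 0.21 with IFNγ/LPS CM. Relative to Spr, Gch1 was at 0.0230 ± 0.0041, 0.0495 ± 0.011 and 0.810 ± 0.027. Gch1 thus went from the least abundant of the 3 RNAs to a level above Pts and near Spr, and these ratios within a library do not depend on the scaling. They do depend on the length used: with the longest transcript in place of all exons, Gch1 averaged 15.4 RPKM in IFNγ/LPS CM, above Spr at 10.6 and Pts at 5.06. Nos2 was still 99.3 ± 9.2 times as abundant as Gch1 per length in IFNγ/LPS CM, and by the longest transcript the means were 898 and 15.4 RPKM.

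The bases just before the start of these 3 genes are shown because the enzymes act in 1 pathway and their RNAs moved so unequally. RefSeq promoters of GRCm38.p6 were at hand for 5 of the 10 members, Gch1, Pts, Spr, Ass1 and Ddah1, and not for Nos2, Asl, Slc7a2, Arg1 and Arg2. The windows printed are chr14:47189414-47189663 for Gch1, chr9:50528725-50528906 for Pts and chr6:85137767-85138014 for Spr, all on the minus strand, written 5′ to 3′ toward the gene. Capitals mark matches to the motifs named after them, and 68 bases of Pts and 2 of Spr next to the RefSeq start were left out because other gene models already place them in the transcript.
Gch1: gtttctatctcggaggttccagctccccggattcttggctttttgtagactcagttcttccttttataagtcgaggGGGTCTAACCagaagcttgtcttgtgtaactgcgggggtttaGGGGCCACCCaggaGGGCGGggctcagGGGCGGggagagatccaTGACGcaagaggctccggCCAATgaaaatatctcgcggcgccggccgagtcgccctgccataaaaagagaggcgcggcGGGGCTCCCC
Pts: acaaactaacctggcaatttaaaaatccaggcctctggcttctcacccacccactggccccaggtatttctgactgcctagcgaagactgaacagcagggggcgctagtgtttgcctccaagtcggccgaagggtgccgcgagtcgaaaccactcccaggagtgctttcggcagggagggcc
Spr: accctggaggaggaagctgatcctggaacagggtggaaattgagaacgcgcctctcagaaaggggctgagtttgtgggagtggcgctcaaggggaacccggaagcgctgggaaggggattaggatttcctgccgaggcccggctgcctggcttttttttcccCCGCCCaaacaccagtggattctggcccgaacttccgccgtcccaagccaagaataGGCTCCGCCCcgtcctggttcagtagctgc

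In the 250 bases before its RefSeq start, Gch1 held TGACG, the core letters of the cyclic AMP response element, 88 to 84 bases before the start and a CCAAT box (CCAAT) 70 to 66 bases before it. It also held GC boxes (GGGCGG) ending 113 and 100 bases before the start, and 3 stretches of the loose form that NF-κB binds, GGG and CC with any 5 bases between them, at 174 to 165, 132 to 123 and 10 to 1 bases. In Pts 1 GC box and 1 NF-κB-form stretch overlapped, both within the bases left out above. Spr had GC boxes at 88 to 83 and at 28 to 23 bases, the latter inside an NF-κB-form stretch. Ass1 held ACGTG, the core letters of the hypoxia factor site, at 35 to 31 bases, overlapping the same letters on the other strand, as well as a GC box and several NF-κB-form stretches that overlap one another. Other gene models already place the 63 bases next to the RefSeq start of Ass1 in the transcript, and the ACGTG and GC box matches lie within them. None of these letters occurred in Ddah1, and no interferon response element (GAAA, any 2 bases, GAAA) or C/EBP-type site (TTNNGCAA) in any of the 5 windows. Read on both strands, 45.8% of 32851 RefSeq promoters of this length hold the NF-κB form, 33.8% CCAAT, 32.7% GGGCGG, 17.8% TGACG, 16.6% ACGTG, 9.56% TTNNGCAA and 2.98% the interferon response element. These matches describe letters in a short window, and factor binding was not measured.

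Slc7a2 (ENSMUSG00000031596, chr8:40862396-40922308, plus strand) encodes CAT-2, a carrier of arginine and other cationic amino acids. In regular medium it was at 377, 403, 379 and 367 CPM. Naive CM libraries held 368, 346, 326 and 344 CPM. In IFNγ/LPS CM the values were 7260.5, 7370.5, 7216 and 7001 CPM. All 4 IFNγ/LPS CM libraries were far above the rest, and the regular medium and naive CM ranges overlap slightly. The log2 fold change from naive CM to IFNγ/LPS CM was 4.38 ± 0.051 (SE), with an adjusted p of 7.98e-23, and against regular medium it was 4.24 ± 0.050 (SE), adjusted p 1.12e-22. Naive CM was under regular medium by a log2 fold change of -0.14 ± 0.044 (SE) with an adjusted p of 0.0191, and 12 of 16 alternatives kept this call. It was lost in a fit of these 2 groups alone, without naive CM replicate 3 or 4 and without regular medium replicate 2, with adjusted p of 0.0501, 0.0729, 0.052 and 0.0589. Slc7a2 was the 9th or 10th gene by count in every IFNγ/LPS CM library, with 0.589 to 0.616% of the counts. A transcript on the opposite strand, Gm26584, overlaps its exons, and whether the counting used strand is not given in the sources used here.

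Slc7a2 was the main RNA of the cationic amino acid transporters Slc7a1, Slc7a2 and Slc7a3 in regular medium and naive CM as well. Its share of the summed RPKM of Slc7a1, Slc7a2 and Slc7a3 was 90.0% ± 1.4 (SD, n = 4) in regular medium, 90.0% ± 0.90 with naive CM and 99.3% ± 0.073 with IFNγ/LPS CM. Slc7a1, the widely expressed carrier CAT-1, was at 51.0 ± 7.7, 46.0 ± 2.4 and 62.9 ± 5.2 CPM in that order. Its log2 fold change from naive CM to IFNγ/LPS CM was 0.45 ± 0.095 (SE) with an adjusted p of 0.000813, and 0.06 with an adjusted p of 0.528 under library totals. Per length, Slc7a2 reached 0.928 ± 0.066 of the Nos2 level in IFNγ/LPS CM, and with the longest transcript as the length the means were 912 RPKM for Slc7a2 and 898 for Nos2.

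The 2 enzymes that rebuild arginine from citrulline behaved unequally. Ass1, the argininosuccinate synthase (ENSMUSG00000076441, chr2:31470207-31520672, plus strand), was at 32.7, 30.8, 35.7 and 33.4 CPM in regular medium. Naive CM gave 23.5, 25.3, 26.1 and 27.2 CPM. IFNγ/LPS CM gave 47.6, 46.2, 46.9 and 43.2 CPM. The 3 groups do not overlap, naive CM being lowest and IFNγ/LPS CM highest. IFNγ/LPS CM exceeded naive CM by a log2 fold change of 0.85 ± 0.057 (SE), adjusted p 7.53e-11, under TMM. Under library totals the value was 0.46 with an adjusted p of 3.76e-07 by edgeR. Naive CM was under regular medium by -0.38 ± 0.057 (SE), adjusted p 4.27e-05. Against regular medium, IFNγ/LPS CM was higher by 0.47 ± 0.056 (SE) with an adjusted p of 3.52e-07 under TMM, but by 0.09 with an adjusted p of 0.164 under library totals.

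Asl, the argininosuccinate lyase that follows (ENSMUSG00000025533, chr5:130011258-130029247, minus strand), showed 30.7, 27.8, 29.1 and 29.3 CPM in regular medium. Its naive CM values were 31.4, 30.8, 30.6 and 29.2 CPM. Those of IFNγ/LPS CM were 38.2, 36.7, 33.5 and 35.6 CPM. The IFNγ/LPS CM libraries were above the others, and regular medium and naive CM overlap. The log2 fold change from naive CM to IFNγ/LPS CM was 0.24 ± 0.052 (SE) with an adjusted p of 0.00041 under TMM and -0.15 with an adjusted p of 0.0141 under library totals. Naive CM and regular medium gave a log2 fold change of 0.06 ± 0.052 (SE) with an adjusted p of 0.393. The Ass1 to Asl ratio of RPKM, which does not depend on the scaling, was 2.27 ± 0.14 (SD, n = 4) in regular medium, 1.68 ± 0.15 with naive CM and 2.56 ± 0.17 with IFNγ/LPS CM.

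**Figure D2:**
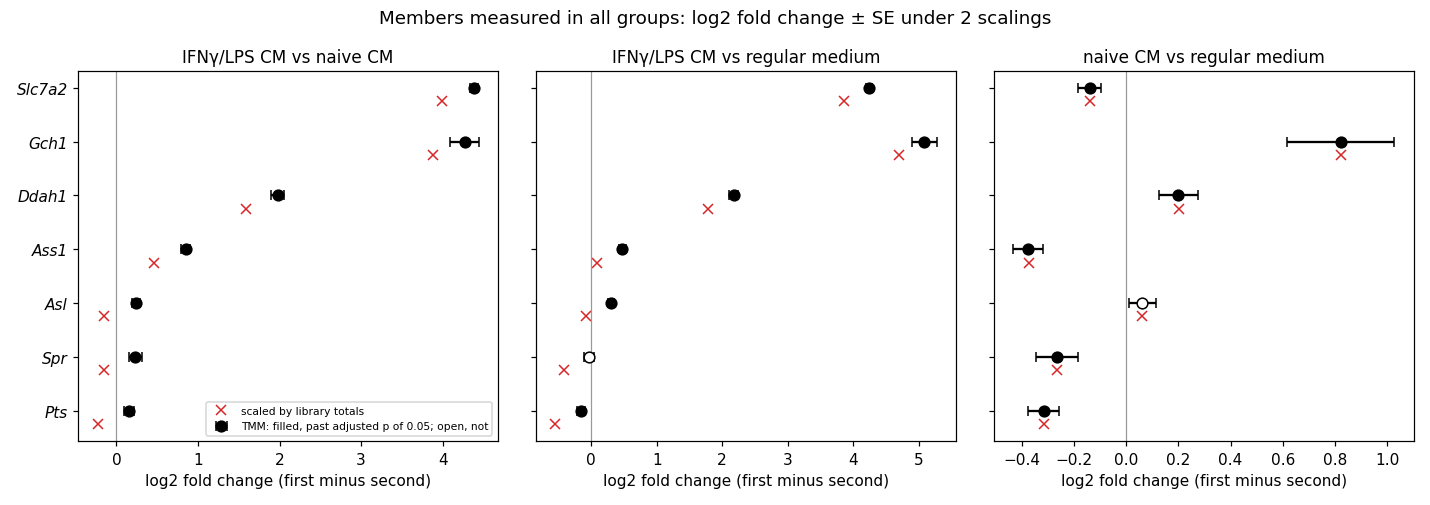
Points are log2 fold changes ± SE from edgeR with TMM for the 7 members with more than 100 counts in every group, filled where the adjusted p is under 0.05 and open where not; crosses are the same change with libraries scaled by their totals, and each panel has its own x range. In both comparisons with IFNγ/LPS CM the crosses lie left of the points by much the same distance for each gene, which takes Asl, and in the first comparison also Spr and Pts, across 0, while in naive CM against regular medium points and crosses coincide.

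The arginases went separate ways. Arg1, the liver-type cytosolic arginase known from alternatively activated macrophages (ENSMUSG00000019987, chr10:24915221-24927484, minus strand), had counts of 0, 1, 0 and 0 in regular medium. The naive CM libraries held 1, 8, 2 and 5 counts, and the IFNγ/LPS CM libraries 0, 1, 0 and 0. It was seen in all 4 naive CM libraries and in 1 of 4 in each other group, at 0.129 CPM or less. Arg1 did not pass the filter on low counts and was not tested with the other members. The summed counts gave a naive CM to regular medium ratio of 16.4 with an exact 95% interval of 2.54 to 687, and a naive CM to IFNγ/LPS CM ratio of 11.3 with an interval of 1.76 to 475. Without the filter its adjusted p by edgeR was 0.0388 and 0.0497 in these comparisons.

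Arg2, the mitochondrial arginase (ENSMUSG00000021125, chr12:79130777-79156301, plus strand), had 0, 1, 0 and 0 counts in regular medium, and the naive CM libraries held 0, 2, 0 and 1. In IFNγ/LPS CM it had 320, 229, 308 and 237 counts, or 8.61, 6.63, 8.54 and 6.99 CPM. No library of the other groups came near these values. The IFNγ/LPS CM to naive CM ratio of summed counts was 515 with an exact 95% interval of 176 to 2500, and the edgeR test gave an adjusted p of 3.86e-15. As for Nos2, the filter was passed only through IFNγ/LPS CM, which fixed the direction of this test. Arg2 overlaps Vti1b and Gm48780 on the opposite strand. Vti1b, a gene of vesicle fusion, was at 64.4, 62.3 and 82.9 CPM in regular medium, naive CM and IFNγ/LPS CM. Summed over the regular medium libraries, Arg2 had 1 count and Vti1b 13346. What part reads of Vti1b have in the Arg2 counts was not tested. Per length, Nos2 RNA was 160 ± 22 (SD, n = 4) times as abundant as that of Arg2 in IFNγ/LPS CM.

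Ddah1 (ENSMUSG00000028194, chr3:145758675-145894277, plus strand) breaks down asymmetric dimethylarginine, an inhibitor of nitric oxide synthases that is released from methylated proteins. In regular medium it measured 13.1, 12.9, 12.4 and 11.2 CPM. Its naive CM levels were 11.9, 14.0, 15.6 and 15.6 CPM. Those in IFNγ/LPS CM were 56.2, 55.2, 58.0 and 54.8 CPM. IFNγ/LPS CM stands clear of the other groups, which overlap. The log2 fold change from naive CM to IFNγ/LPS CM was 1.98 ± 0.074 (SE) with an adjusted p of 7.59e-15. Between naive CM and regular medium it was 0.20 ± 0.075 (SE) with an adjusted p of 0.0485, which passed in 6 of 16 alternatives, with adjusted p from 0.00267 to 0.172. Leaving out any 1 of naive CM replicates 2, 3 and 4 or regular medium replicates 2, 3 and 4 ended this call, with adjusted p of 0.0569 to 0.172.

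Ddah2, the other enzyme of this kind, went the opposite way. It was at 50.6 ± 8.7 CPM (SD, n = 4) in regular medium, 48.3 ± 2.9 with naive CM and 18.8 ± 2.5 with IFNγ/LPS CM, a log2 fold change of -1.37 ± 0.12 (SE) between the last 2 groups with an adjusted p of 7.09e-07. Ddah1 therefore made up 9.12% ± 1.7 (SD, n = 4) of the summed RPKM of both genes in regular medium, 10.6% ± 1.4 with naive CM and 54.6% ± 4.1 with IFNγ/LPS CM. The sum of both was 25.9 ± 1.2 RPKM in IFNγ/LPS CM, with 33.9 ± 1.7 in the naive CM libraries and 34.9 ± 5.2 in those of regular medium.

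**Figure D3:**
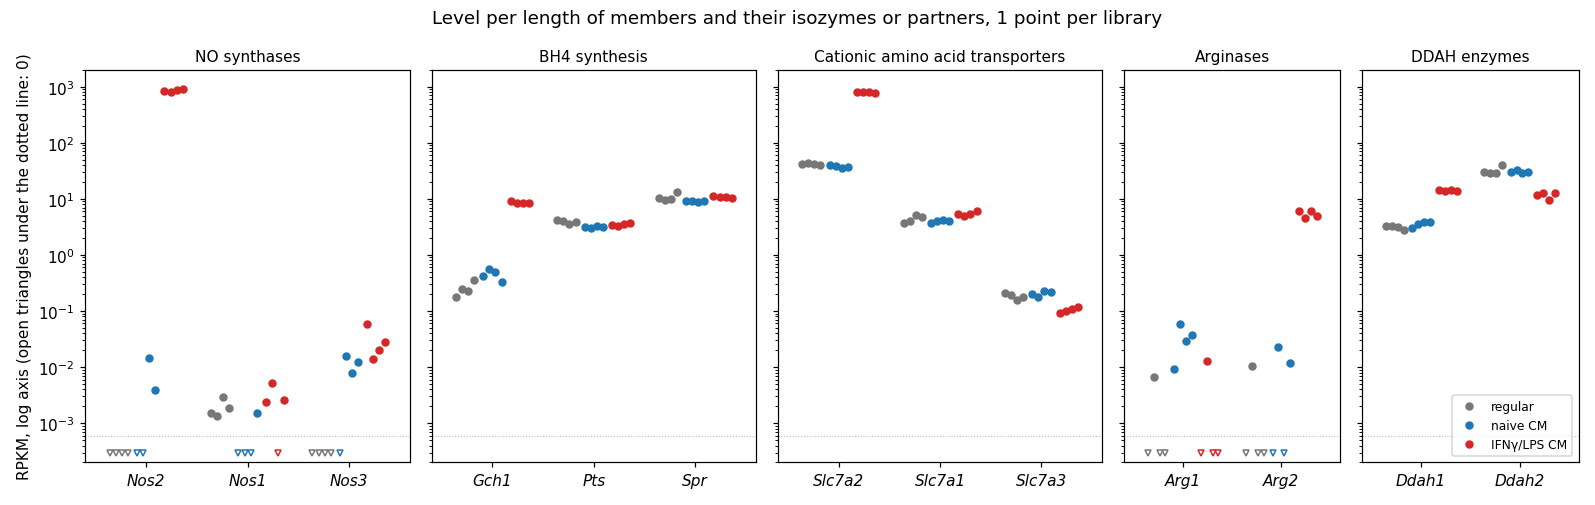
Level per length (RPKM, log axis) of the members beside their isozymes or pathway partners, 1 point per library, coloured by group; open triangles under the dotted line are libraries with 0 counts. Nos2 and Slc7a2 reach about the same height in IFNγ/LPS CM, Gch1 passes Pts but not Spr, and Ddah1 and Ddah2 meet.

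Counted by comparison, 9 of the 10 members could be tested. Nos2 and Arg2 passed the filter on low counts only through IFNγ/LPS CM and could only be higher there, and Arg1 did not pass, so the counts that follow for IFNγ/LPS CM are of the 7 others. Between IFNγ/LPS CM and naive CM, these 7 were higher and 0 lower under TMM, where 36.1% of all genes tested were higher and 35.8% lower. The middle one of the 7 was Ass1 with a log2 fold change of 0.85, beside a median of 0.004 for all genes. The 7 had ranges that did not overlap, as did 69.5% of all genes tested. Under library totals 4 of the 7 were higher, Pts and Asl lower, and Spr did not pass. Between naive CM and regular medium, 2 members were higher (Gch1 and Ddah1), where 18.3% of all genes were, and 4 lower (Pts, Spr, Ass1 and Slc7a2), where 16.4% were. Without regular medium replicate 4, Ddah1 was at 0.15 with an adjusted p of 0.135, which leaves 1 higher. Pts, Spr and Ass1 had ranges that did not overlap in this comparison, beside 32.7% of all genes. The 3 that missed the threshold were Asl, and Nos2 and Arg2 with at most 3 counts in a group. Leaving out these last genes, the middle one of the 7 others was Slc7a2 with a log2 fold change of -0.14, beside a median of -0.017 for all genes. Between IFNγ/LPS CM and regular medium, 5 of the 7 were higher (35.4% of all genes) and 1, Pts, lower (36.4% of all genes, 71.8% passing in either direction), at a log2 fold change of -0.16 and an adjusted p of 0.0243. The Pts call was lost without IFNγ/LPS CM replicate 1 or 2 or regular medium replicate 1, with adjusted p of 0.0564, 0.0922 and 0.0888. Spr was at -0.04 ± 0.081 (SE) with an adjusted p of 0.705. Under library totals 3 of the 7 were higher, Pts and Spr lower, Ass1 did not pass and Asl was at -0.09 with an adjusted p of 0.136. In that comparison the ranges of 5 of the 7 did not overlap, beside 65.2% of all genes tested, and Ass1, the middle one, was at 0.47, beside a median of -0.026 for all genes. The 3 comparisons share their groups of libraries, so their counts are not independent of one another. Because the members were chosen with earlier results of these data known, their shared direction is no independent evidence.

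Other genes of the pathway were followed in 8 lists, each compared between IFNγ/LPS CM and naive CM. Of all genes tested, 36.1% were higher and 35.8% lower in this comparison, so both directions within a list are no trait of its own. Of the 7 other genes of tetrahydrobiopterin synthesis and recycling, 1 was higher, 2 were lower, 3 did not pass and 1 was too low to test, with a median of -0.20 beside the 0.004 of all genes tested. Akr1b3, an aldose reductase able to reduce pterin intermediates, rose by 0.57, and Cbr1, a carbonyl reductase, fell by 0.46. Qdpr, the main recycling reductase, was at 21.2 ± 1.8, 21.7 ± 0.46 and 23.1 ± 0.73 CPM in regular medium, naive CM and IFNγ/LPS CM, with an adjusted p of 0.178 between the last 2 under TMM and a log2 fold change of -0.30 with an adjusted p of 0.000198 under library totals. Gchfr, the protein that lends Gch1 its feedback inhibition, was under 1 CPM throughout.

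Among the 12 other synthases and proteins that bind them, 3 were higher, 5 lower, 1 did not pass and 3 were too low to test, with a median of -0.39. Cav1, the scaffold of caveolae known to hold endothelial synthase inactive, went from 1091 CPM in naive CM to 173 in IFNγ/LPS CM, a log2 fold change of -2.66 ± 0.041 (SE) with an adjusted p of 6.74e-21. Nos1ap, an adaptor of the neuronal enzyme, was lower by 1.82 on the log2 scale, and Calm2, 1 of 3 genes for the calmodulin that all synthases bind, by 0.85. Nosip, Hsp90ab1 and Hsp90aa1 were higher by 0.35, 0.30 and 0.20 under TMM, and under library totals each of the 3 turned slightly lower, none of the 12 was higher and 7 were lower.

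The 15 other carriers of arginine, citrulline or ornithine split into 4 higher, 5 lower, 3 that did not pass and 3 too low to test, with a median of -0.19. Slc7a8, a carrier of neutral amino acids, had 190 counts in IFNγ/LPS CM and 4 in naive CM, a ratio of 67.1 with an exact 95% interval of 25.8 to 249. It passed the filter only through the former, so its direction was fixed, and it is among the 4 counted as higher. Slc3a2, the heavy chain that such carriers need at the cell surface, rose 2.05-fold, from 68.6 to 141 CPM. Its light chain partners for the exchange of arginine against neutral amino acids were lower, Slc7a6 by 0.61 and Slc7a7 by 0.69 on the log2 scale, as was the mitochondrial carrier Slc25a29 by 1.06.

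In the list of 11 genes that make or clear methylarginines, 2 were higher, 4 lower, 3 did not pass and 2 were too low to test, with a median of -0.17. Beside Ddah2, the arginine methyltransferases Prmt7 and Carm1 were lower, with log2 fold changes of -0.87 and -0.37. Prmt2 and Prmt6 were higher by 0.29 and 0.22 under TMM and turned to -0.10 and -0.16 under library totals.

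The routes that lead arginine and ornithine elsewhere also held genes of both directions, as did all genes tested. Of 15 genes of the ornithine, proline, creatine, agmatine and urea cycle branches, 4 were higher, 5 lower, 2 did not pass and 4 were too low to test, with a median of -0.15. Ckb, the brain-type creatine kinase, went from 67.6 to 4.48 CPM and Gamt, the last enzyme of creatine synthesis, from 18.9 to 2.16 CPM, or 15.0-fold and 8.70-fold lower. Gatm, the first enzyme of creatine synthesis, had 47 counts in IFNγ/LPS CM and 38 in naive CM, with an adjusted p of 0.0683. For proline, Prodh and Aldh18a1 were higher by 1.76 and 0.97 on the log2 scale, while Pycr1, which completes proline synthesis, was lower by 1.86. Oat, the mitochondrial enzyme that links ornithine to proline and so stands downstream of Arg2, went from 180.5 to 116 CPM, a log2 fold change of -0.64 with an adjusted p of 1.52e-09. Azin2, listed for agmatine and known as an antizyme inhibitor, rose 4.57-fold. The liver enzymes Otc and Cps1, which complete the urea cycle, had 9 and 0 counts over the 4 IFNγ/LPS CM libraries and 6 and 22 over those of naive CM.

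For polyamines, which are made from ornithine, 4 of 13 genes were higher, 8 lower and 1 did not pass, with a median of -0.31. Odc1, the first enzyme, rose from 83.5 to 159 CPM, a log2 fold change of 0.93 ± 0.040 (SE) with an adjusted p of 6.17e-14, and Smox, which oxidises spermine, rose 4.17-fold. Amd1, which supplies the second building block, was 2.22-fold lower, Azin1, which protects Odc1 from antizyme, 1.70-fold lower and Sat2 2.35-fold lower. Sms, the spermine synthase, was higher by 0.21 under TMM and at -0.18 under library totals.

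On the receiving side of nitric oxide, 4 of 12 genes were higher, 6 lower and 2 did not pass, with a median of -0.39. The 3 listed subunits of soluble guanylyl cyclase, the receptor by which nitric oxide relaxes smooth muscle, were among the lower ones. Gucy1a1 was at 63.2 CPM in regular medium, 72.8 with naive CM and 16.7 with IFNγ/LPS CM, a log2 fold change of -2.13 ± 0.060 (SE) between the last 2 with an adjusted p of 7.25e-17. Gucy1b1, its partner, was at 26.3, 31.8 and 6.05 CPM, with a log2 fold change of -2.40 ± 0.086 (SE) and an adjusted p of 4.01e-15, and Gucy1a2 fell by 2.06. Prkg1, the kinase that cyclic GMP activates, fell by 1.81. Pde5a, which breaks cyclic GMP down, was also lower, with a log2 fold change of -0.82. The thioredoxin reductases Txnrd1 and Txnrd2, which help to remove nitric oxide from protein thiols, were higher by 1.06 and 0.52 under TMM. Their substrate Txn1 was higher by 0.35 under TMM and at -0.04 under library totals. On the latter scale Txnrd2 was at 0.13 with an adjusted p of 0.132 by edgeR, and of the 12 genes 1 was higher and 8 were lower. Of the 11 smooth muscle markers tested in the same comparison, 8 were lower, as were 35.8% of all genes tested. Mylk was higher by 1.08 and 2 did not pass. What part the lower markers have in the receptor genes' differences was not tested.

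The 16 transcription factors known to act on Nos2 were all higher in IFNγ/LPS CM than in naive CM, where 36.1% of all genes tested were. Their median log2 fold change was 2.35. Under library totals 15 of 16 were higher, with a median of 1.96, as were 3279 of all 16140 genes tested. Irf1, an interferon-responsive factor, went from 39.1 to 1580.5 CPM, a 40.5-fold rise. Irf8, better known from myeloid cells, had 4430 counts against 13, a ratio of 481 with an exact 95% interval of 281 to 904, and passed the filter only through IFNγ/LPS CM. Its direction was thus fixed, and it is part of the counts and medians given for the list. Of the NF-κB subunits, Rela rose by 1.76, Nfkb1 by 1.98, Nfkb2 by 2.32, Rel by 1.28 and Relb by 2.38 on the log2 scale. Hif1a, the hypoxia factor, rose by 2.26, and Cebpb and Cebpd by 2.55 and 3.17. Between naive CM and regular medium 6 of the 16 were higher, 0 lower and 10 did not pass, with a median of 0.09. Of all genes tested, 18.3% were higher there and 16.4% lower. Irf1 was higher by 0.18 ± 0.042 (SE). This list was drawn up with earlier results of these libraries known, so its direction is no independent evidence.

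**Figure D4:**
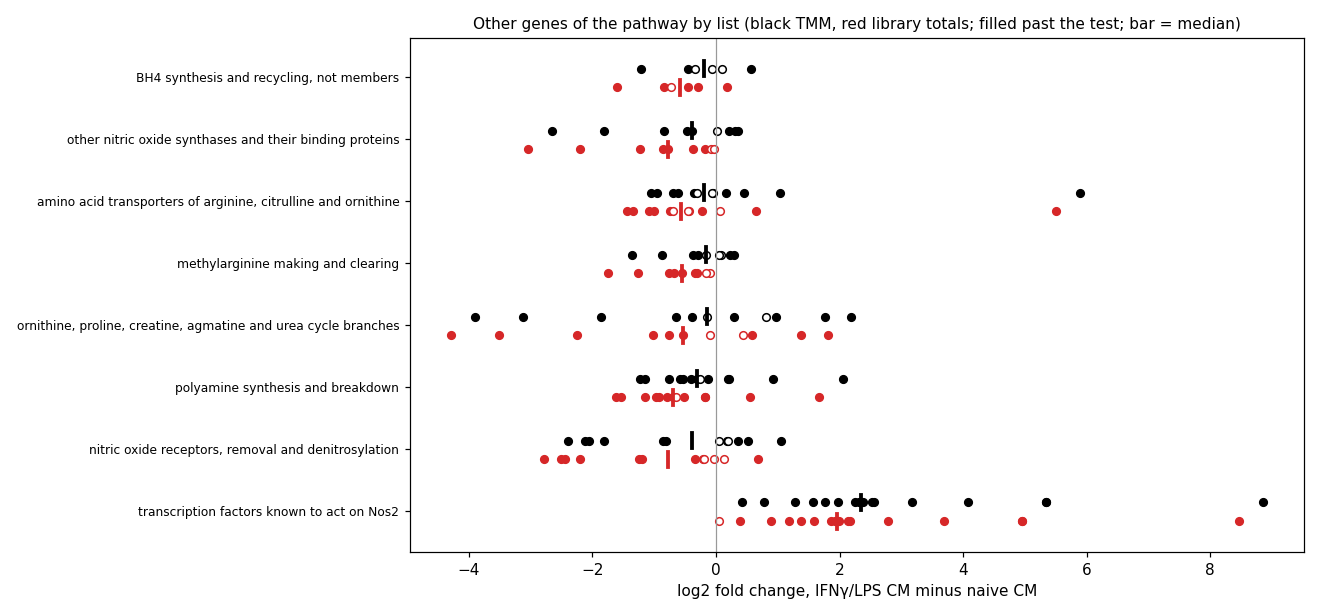
Each point is the log2 fold change of 1 gene from naive CM to IFNγ/LPS CM, by list; black points are scaled by TMM and red points by library totals, filled where the adjusted p is under 0.05, and the vertical bars are list medians. All transcription factors lie right of 0, with 1 near 0 under library totals, and the medians of the other 7 lists lie between -0.39 and -0.15 under TMM and between -0.77 and -0.54 under library totals.

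Genes whose levels followed those of a member most closely were sought among 11258 genes with at least 5 CPM in their highest group, by Pearson's r of log2 CPM over the 12 libraries. The 12 points form 3 groups and share their scaling, so high values are common: 526 genes had r over 0.99 with Nos2 and 727 with Slc7a2. For Nos2 the closest were Ppp1r3b (r = 0.999), Gm4841 (0.999) and Pml (0.998). Outside IFNγ/LPS CM, Nos2 and Arg2 had at most 2 counts in a library. Their values there rest mostly on the 0.5 counts added before the logarithm and on library size. For these 2 members r thus reflects little beyond the step to IFNγ/LPS CM, the group through which they passed the filter. Slc7a2 was matched best by Gbp6, a guanylate-binding protein, which went from 2.73 CPM in naive CM to 3610 in IFNγ/LPS CM, then by Enpp4 and Rmdn3. For Gch1 they were Micall2, Lpin3 and Tap2, and for Arg2 Tnfaip8, Suco and Stk38l. Ass1, which was lowest in naive CM, had 1 gene over 0.99, Rnf41, followed by Xbp1 and Hs6st1. With Spearman's rank correlation in place of Pearson's, 0 of the 3 closest genes were kept for Nos2, Gch1 and Slc7a2 and 1 of 3 for Ass1 and Arg2.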

How the data were processed

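Polyadenylated RNA was made into stranded libraries and sequenced, per the labels' protocols. The authors deposited an estimated count for each gene and library as whole numbers, made with Salmon 1.10.1 on mm10 per the submitters' processing notes. The annotation release, the summing of transcripts and the use of strand were not given in the sources used here. Columns were joined to titles by name, where M0 was taken to mean naive macrophages and M1 treated ones, which the labels do not spell out. Symbols, coordinates and exon lengths came from GENCODE M21 (GRCm38, the mm10 build), which matched 51344 of 55822 identifiers (92%) without their version; identifiers without a symbol held 3.53 to 5.86% of counts.

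Counts were filtered with filterByExpr by group in edgeR 4.0.16 under R 4.3.3 (16140 genes left), scaled by TMM (mean factors 1.09, 1.09 and 0.836 in regular medium, naive CM and IFNγ/LPS CM) and tested by the two-sided robust quasi-likelihood F-test in 1 model of 12 libraries with 9 residual degrees of freedom, with Benjamini-Hochberg adjustment over all genes and a threshold of 0.05. The SE, an approximation, divides the log2 fold change by the square root of F. Where the lower group held 100 counts or fewer, the text gives a ratio of summed counts and its exact 95% counting interval. A group with 0 counts was set at 3 counts over the group. Intervals and floors cover counting error only. The scripts were tested on simulated data in which 200 genes changed, equally many up and down. Of 100 changes of 1 on the log2 scale 80 were recovered, and 95 of 100 changes of 2, with 10 false calls. In the real comparison of IFNγ/LPS CM with naive CM 71.9% of genes passed, so this simulation could not test the scaling.

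The alternatives were DESeq2 size factors, library totals, no filter, a stricter filter (1 CPM in 4 libraries), limma-voom (limma 3.58.1), the Wald test of DESeq2 1.42.0, a replicate block, a fit limited to the groups compared, each library left out, the longest transcript as length and Spearman's correlation. No pairing by equal replicate number was seen: their deviations correlated between -0.0604 and 0.0635 over 12 pairs, none over 0.1. Pairs of unequal number were not compared, so these values cannot decide whether an animal or day was shared. Replicates of a group differed by more than sampling noise, with a chi-square per degree of freedom of 4.71 to 56.9.

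All members are named. Of each list, up to 3 genes per direction are named. They are those with the largest change between IFNγ/LPS CM and naive CM and at least 1 CPM. Nos1, Nos3, Slc7a1, Gchfr, Qdpr, Ddah2, Odc1, Oat, Otc and Cps1 are named as well. Gatm, Prkg1, Pde5a, the NF-κB genes, Hif1a, Cebpb and Cebpd were named after their values were seen. A few items that this rule would name are not reported here. The members and the lists were chosen with earlier results of these data known.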

Additional observations from a re-analysis of the deposited data

Results flagged for a closer look

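In each group of 4 libraries, 1 library was set apart where its gap to the nearest other exceeded Dixon's critical share of the group's range. Among the members and the named pathway genes 148 groups were searched and 9 were set apart, where chance sets apart about 1 in 20.

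Of the members only Gch1 was among them: IFNγ/LPS CM replicate 1 had 58.4 CPM beside 51.7 to 52.8 in the other 3. The same library was also apart for Smox (35.5 CPM, others 33.3 to 33.5), Txnrd1 (477 CPM, others 442 to 444) and Irf8 (30.03 CPM, others 31.6 to 31.8). Irf1 was lowest in IFNγ/LPS CM replicate 4, at 1492 CPM beside 1604 to 1619. In regular medium, replicate 4 was high for Ddah2 (63.6 CPM, others 45.7 to 47.0) and for Ckb (110.2 CPM, others 65.5 to 71.6), and replicate 1 for Odc1 (95.9 CPM, others 90.2 to 90.9). Txnrd1 was low in naive CM replicate 1, at 210.7 CPM beside 218.5 to 218.9.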

How the results depend on the processing

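Over 430 refits of the members' tests, 401 kept direction and side of the threshold, 24 lost the call, 1 gained it and 4 reversed; for the named pathway genes these numbers were 2059, 20, 11 and 14 of 2104. All reversals came from scaling by library totals, which itself moves the median of all genes down. Between IFNγ/LPS CM and naive CM the log2 fold change then became -0.23 for Pts, -0.16 for Spr, -0.15 for Asl, -0.039 for Nosip, -0.085 for Hsp90ab1, -0.18 for Hsp90aa1, -0.10 for Prmt2, -0.16 for Prmt6, -0.18 for Sms, -0.035 for Txn1 and -0.30 for Qdpr. Against regular medium it became -0.086 for Asl, -0.20 for Hsp90aa1, -0.079 for Slc7a1, -0.23 for Prmt2, -0.36 for Prmt6, -0.10 for Sms and -0.26 for Qdpr, and Spr passed at -0.42. On that scale 3279 genes were higher and 9371 lower than in naive CM, and 3279 and 9597 than in regular medium, with 2 members lower in each. Without the filter 1 member, Arg1, was lower than in naive CM.

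Between naive CM and regular medium 1 member in place of 2 was higher under library totals, limma-voom, a fit of only these groups and the replicate block, Ddah1 being the one lost, and 2 in place of 4 were lower in the fit of only these groups. With the replicate block, Ddah1 had an adjusted p of 0.0658 by edgeR, and no other member's call changed. Leaving out 1 library in turn gave 8 to 9 members higher and 0 lower in IFNγ/LPS CM against naive CM (5650 to 5758 and 5617 to 5701 of all genes), 1 to 2 higher and 3 to 4 lower in naive CM against regular medium (2544 to 3008 and 2139 to 2732), and 7 higher and 0 to 1 lower in IFNγ/LPS CM against regular medium (5557 to 5775 and 5662 to 5839). The counts with IFNγ/LPS CM, like the refits above, include Nos2 and Arg2. Both passed the filter only through that group and could only be higher there. Pts lost its call against regular medium without IFNγ/LPS CM replicate 1 or 2 or regular medium replicate 1. Depth limits Arg1, and Nos2 and Arg2 outside IFNγ/LPS CM. The causes were not tested.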
